A study of Mus musculus with 4 samples.

Results

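The leukocyte integrins, selectins and adhesion molecules were a set of 35 genes chosen by name and function: 14 integrin α subunits, 8 integrin β subunits, 3 selectins or selectin ligands, 6 immunoglobulin-type ligands and junction molecules, the surface molecules Cd44 and Cd47, and the cytoplasmic activators Tln1 and Fermt3. They are 35 of the 54532 genes in the count table, and the rule that chose them by name used no measured value, although results of these data were known when it was written. Integrins are receptors made of an α and a β chain. Leukocytes roll on activated vessel walls by selectins that grip glycosylated ligands such as PSGL-1, and then stop when the β2 integrins LFA-1 and Mac-1 bind ICAM-1 or the α4 integrins bind VCAM-1. Talin and kindlin-3 bind the β chain from inside the cell and switch the integrin to its high-affinity form, and in neutrophils these steps are known to govern arrest in inflamed tissue, although capture in lung capillaries depends less on selectins.

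The RNA came from myeloid-derived suppressor cells (MDSCs) positive for CD11b and Ly6g, sorted from lungs of C57BL/6 mice with a model of the pre-metastatic niche (PMN), the changed tissue that forms in an organ before tumor cells settle there. The mice were 6 to 8 weeks old, and every group, Ctrl included, was given 300 μL of B16F10 melanoma-conditioned medium (MCM) intraperitoneally each day for 10 days and 100000 B16F10 cells by tail vein on day 7. Ctrl mice received no peptide. The other groups received a daily subcutaneous dose of TP5, sFD17 or FR17, at 40 μM/kg/day and beginning with day 3, and all lungs were taken on day 10. Thymopentin in its free form is TP5. FR17 holds it on a peptide that is cut by MMP2 and then self-assembles, and sFD17 has the same design with the pentapeptide scrambled. Each group was 1 library from the pooled cells of 10 to 12 mice, so no value has a replicate check, no p-value is given, and each difference is between libraries and not shown to be between treatments. The 3 comparisons with Ctrl also share the 1 Ctrl library.

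Library totals ran from 15543071 counts in sFD17 to 19638228 in FR17, with TMM scaling factors from 0.849 in sFD17 to 1.17 in FR17. All 12 neutrophil markers were detected in each library and took 3.30% to 3.78% of the counts, against 0.162% to 0.899% for 14 macrophage markers, which were also all detected in each library. The macrophage marker sum, in CPM (counts scaled to library size by TMM), relative to Ctrl was 0.776 (TP5), 0.328 (sFD17) and 1.32 (FR17), while the neutrophil sum was 1.10, 1.31 and 0.898 times Ctrl. The marker ratios depend on the TMM factors: as a share of library counts the neutrophil markers took 3.30% in Ctrl and 3.52% in FR17, the other way round, and the monocyte sum in FR17 and the endothelial, dendritic and B cell sums in sFD17 also turned. In a bulk library, fewer cells of a type cannot be told apart from less RNA per cell. A gene was tested where any library had 10 counts or more on it (16369 genes), and it was called higher or lower at a difference of at least 2-fold in scaled CPM, or 1 on the log2 scale. The 95% intervals cover counting error only.

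Icam1 and Sele, the genes of ICAM-1 and E-selectin, are inducible adhesion genes, and their promoter sequences are shown because Icam1 was the member farthest above Ctrl in any library, and because these were the members whose proximal promoter held both of a pair of cytokine-response motifs. Capitals mark matches to TTCNNNGAA, the GAS-type motif, and to GGANNTTCC, the κB-type motif, where N is any base. The sequences are the 250 bases before the RefSeq start on GRCm38.p6, both on the plus strand, at chr9:21015690-21015939 for Icam1 and chr1:164047984-164048233 for Sele.
Icam1: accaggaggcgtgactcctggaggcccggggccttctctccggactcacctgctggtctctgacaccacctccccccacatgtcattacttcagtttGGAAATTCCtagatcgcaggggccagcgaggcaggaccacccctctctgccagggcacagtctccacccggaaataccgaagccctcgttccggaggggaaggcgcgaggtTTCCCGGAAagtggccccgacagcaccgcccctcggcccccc
Sele: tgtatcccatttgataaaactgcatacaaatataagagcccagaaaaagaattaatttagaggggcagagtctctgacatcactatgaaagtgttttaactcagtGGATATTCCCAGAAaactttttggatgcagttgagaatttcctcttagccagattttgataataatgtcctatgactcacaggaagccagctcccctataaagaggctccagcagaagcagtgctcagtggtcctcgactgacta
In Icam1 the κB-type match lay 153 to 145 bases and the GAS-type match 42 to 34 bases before the start. In Sele the κB-type match at 145 to 137 bases and the GAS-type match at 140 to 132 bases overlapped. Both strands were searched. Of the 35 members, 24 matched the promoter table, with 27 promoters, of which 2 held the GAS-type and 2 the κB-type letters. Over all 32851 promoters of the same length the shares were 7.02% and 3.59%. A further motif, the interferon-response type with GAAA on both sides of any 2 bases, was in 2 of the 27 (Itga2b and Itga3) and in 2.98% of all promoters. The motifs were picked after the Icam1 values were known, and a match is a description of letters, not of a bound site.

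The levels per gene length put Itgb2, the shared β2 chain of the leukocyte integrins, at the top of the set. In Ctrl it stood at 459 RPKM (reads per kilobase of gene length and per library size as in CPM, TMM-scaled), followed by Cd44 at 352, Selplg at 213 and Itgal at 150 RPKM. Fermt3 and Tln1 came next at 90.2 and 88.1 RPKM, with intervals that met, as did those of Itgam and Itgb1 at 75.8 and 72.9 RPKM and those of Itgax and Icam1 at 64.5 and 63.2 RPKM. The 34 neighbouring pairs in this order were apart beyond their intervals in 18 cases in Ctrl, TP5 and sFD17 and in 22 in FR17. The Fermt3 gene length in the table is 2587 bases against 5784 in GENCODE M21, so its RPKM and place depend on the gene model. The RPKM and place of Itgam depend on how reads on exon bases shared with another gene were counted. The lower end held genes of epithelium and stroma, such as Itgb4, Itgb8 and Itgb6, and Itgb6 had 0 counts in Ctrl, sFD17 and FR17 and 2 in TP5, where a count of 0 allows up to 0.178, 0.227 and 0.131 CPM in those 3 libraries.

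**Figure D1:**
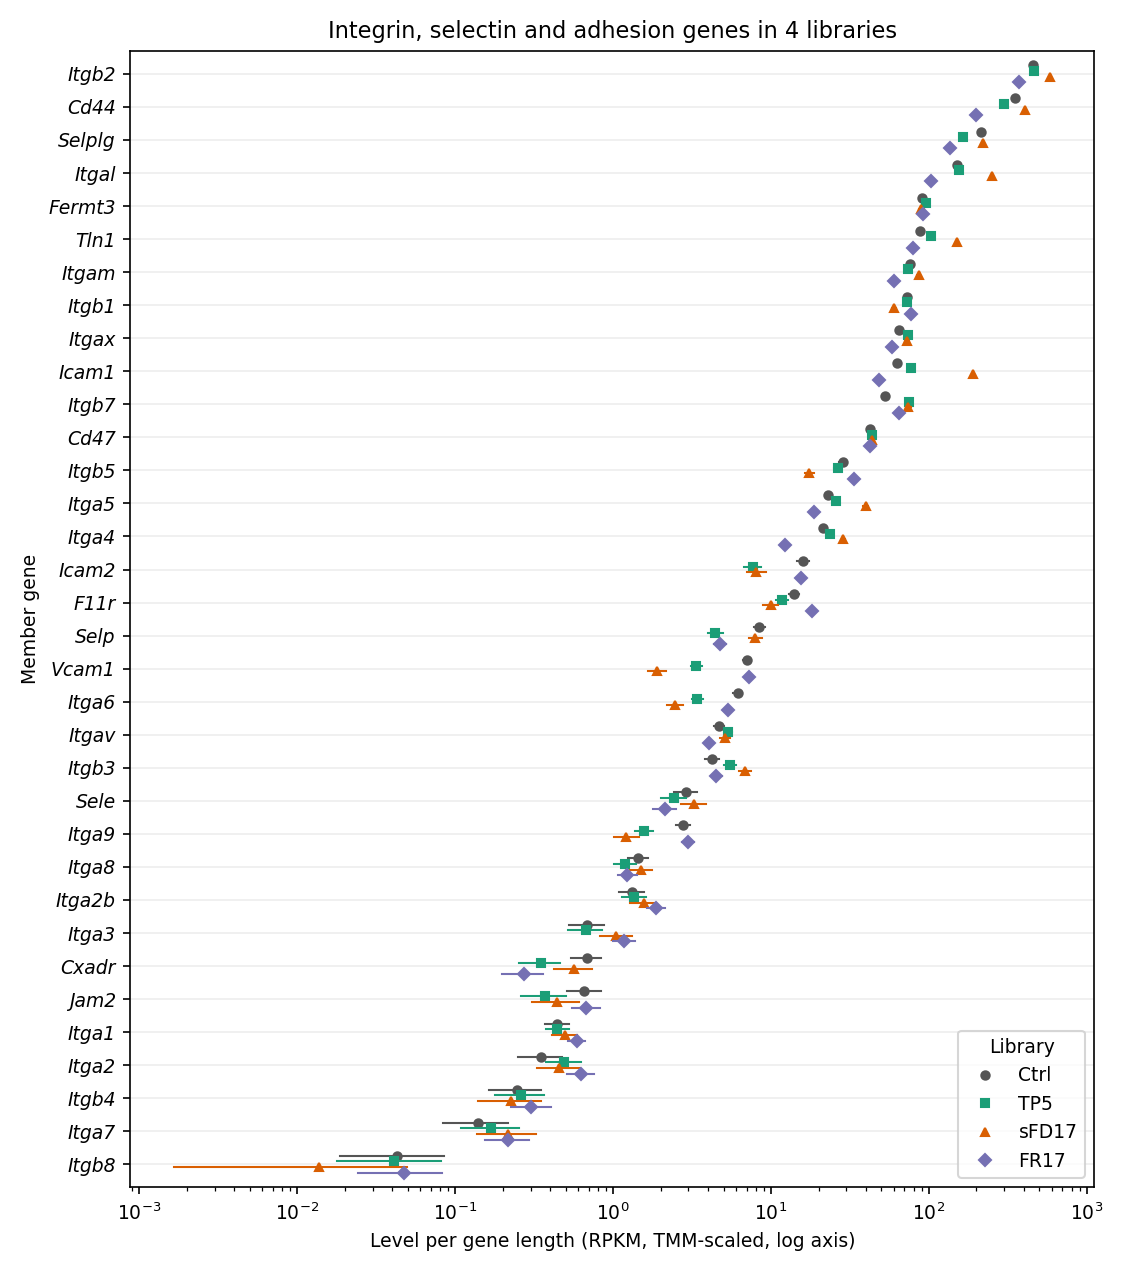
Level per gene length (RPKM, TMM-scaled, log axis) of the 34 tested members, ordered by their level in Ctrl, with 1 symbol per library and 95% Poisson counting intervals as lines. Itgb2, Cd44, Selplg and Itgal lead the order at 150 RPKM or more in Ctrl, and Icam1 in sFD17 and Vcam1 in TP5 and sFD17 stand apart from their Ctrl values.

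Together the members took 0.921% of the counts in Ctrl, 0.930% in TP5, 1.03% in sFD17 and 0.825% in FR17. Cd44, Itgb2, Itgal, Tln1 and Selplg, the members with the most counts, supplied most of that. The 5 members with the most counts made up 70.1%, 67.9%, 71.0% and 64.1% of the members' counts in the same order of libraries. Itgb6 did not pass the minimum count, which left 34 tested members, and 33 had at least 10 counts in every library, the other being Itgb8.

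Few members differed by 2-fold from Ctrl in any peptide library. In TP5, 0 were higher and 2 lower (Icam2 and Vcam1) beside 3.20% and 4.99% of all genes tested. In sFD17, 1 was higher (Icam1) and 4 lower (Vcam1, Itga6, Itga9 and Itgb8) beside 5.32% and 6.47% of all genes. In FR17, 0 were higher and 1 lower (Cxadr) beside 3.92% and 3.58%. Between FR17 and sFD17, 4 were higher (Vcam1, Itga9, Itgb8 and Itga6) and 6 lower (Icam1, Itgal, Itga4, Itga5, Cxadr and Cd44) in FR17, beside 11.3% and 10.8% of all genes. Among members that reached 50 counts in either of the 2 libraries compared, the numbers past 2-fold in either direction were 2 of 31 in TP5, 4 of 30 in sFD17, 1 of 31 in FR17 and 9 of 31 between FR17 and sFD17. The shares of all such genes were 3.19%, 6.60%, 2.94% and 17.6%. At 1 to 9 members per comparison these counts are small, and no test of the members against all genes was made.

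The split between FR17 and sFD17 rested on the scaling. With library size alone, 8 members were at least 2-fold higher in FR17 and 1 was lower, and with TMM on unfiltered genes 6 were higher and 3 lower. Library size alone also moved the median difference of all genes from 0.07 to 0.52 on the log2 scale, and that of the members from -0.12 to 0.34. Icam1 was lower, and Vcam1, Itga6, Itga9 and Itgb8 were higher, in FR17 under each of these 3 scalings. Against Ctrl the tested members had median log2 differences of 0.00 (TP5), 0.14 (sFD17) and -0.01 (FR17), beside 0.00, -0.03 and 0.02 for all genes.

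**Figure D2:**
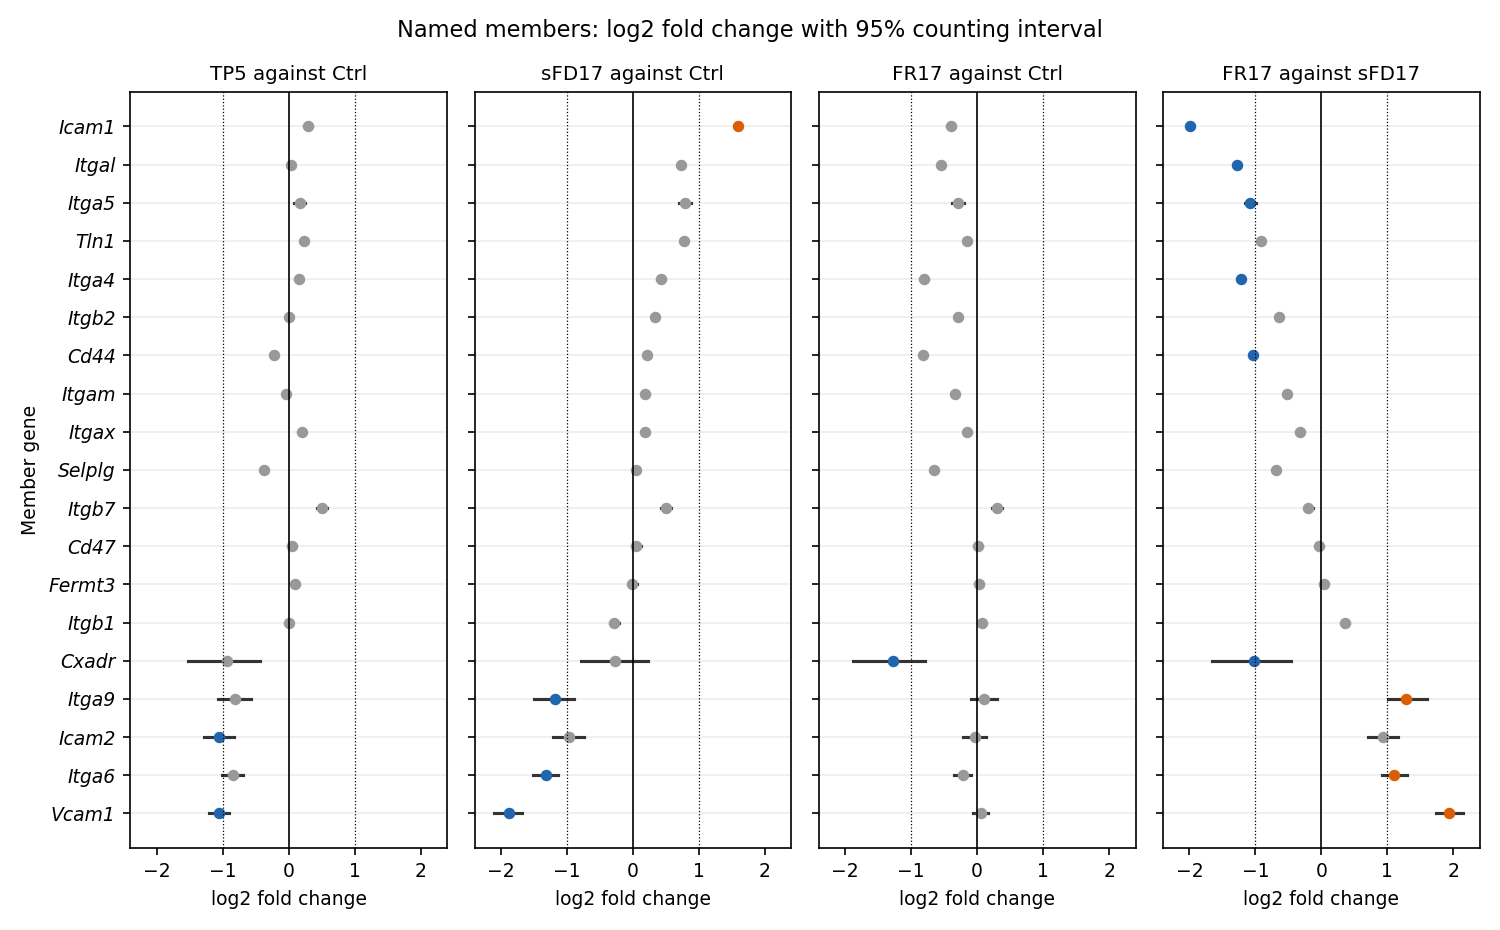
Log2 fold change of 19 members in TMM-scaled CPM for the 4 comparisons, with 95% counting intervals as black lines, often narrower than the point, and dotted lines at 2-fold. Orange points are at least 2-fold higher, blue at least 2-fold lower and grey neither, and Icam1 and Vcam1 lie farthest out on opposite sides in sFD17 against Ctrl and again, with their sides exchanged, in FR17 against sFD17.

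The leukocyte integrin α chains Itgal, Itgam and Itgax stood in different proportions in the libraries. Itgal, which encodes αL of LFA-1, the receptor for ICAM-1 and ICAM-2, had 988 CPM in Ctrl, 1014 in TP5, 1645 in sFD17 and 676 in FR17. It was highest in sFD17 and lowest in FR17, with log2 differences from Ctrl of 0.04, 0.74 and -0.55 in TP5, sFD17 and FR17, and FR17 stood at 0.411 times sFD17 (95% counting interval 0.403 to 0.420). Itgam encodes CD11b itself, on which the cells were sorted, so its presence is no finding. It had 381, 370, 433 and 302 CPM in Ctrl, TP5, sFD17 and FR17, a narrower range than Itgal. Of its 5024 exon bases, 68.7% also belong to Gm49368 on the same strand, which had 52 to 64 counts per library, and reads there could be given to either gene or to neither. Itgax, the αX chain of the complement receptor CR4 that is also used as a dendritic cell marker, had 310, 356, 350 and 279 CPM. Neither Itgam nor Itgax differed by 2-fold in any comparison.

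The share of each α chain in their summed RPKM is free of the scaling between libraries. It still depends on how reads on the exon bases that Itgam shares with Gm49368 were counted, which is not given. Itgal made up 51.7% of the sum of Itgal, Itgam and Itgax in Ctrl, 51.1% in TP5, 61.2% in sFD17 and 46.5% in FR17. Itgam made up 26.1%, 24.4%, 21% and 27.2%. Itgax made up 22.2%, 24.5%, 17.8% and 26.3%. The sFD17 library thus held the largest Itgal share and the smallest shares of both other chains, and FR17 the reverse. The sum of the 3 α chains per unit of Itgb2, their common partner, was 0.634 in Ctrl, 0.653 in TP5, 0.704 in sFD17 and 0.591 in FR17.

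Itga4 and Itga5 followed the same order of libraries as Itgal, highest in sFD17 and lowest in FR17. Itga4, the α4 chain that pairs with β1 or β7 to bind VCAM-1, fibronectin or MAdCAM-1, had 299, 332, 402 and 172 CPM in Ctrl, TP5, sFD17 and FR17. Its level in FR17 was 0.574 times Ctrl (0.550 to 0.598) and 0.428 times sFD17 (0.410 to 0.446). Itga5, which with β1 forms the classical fibronectin receptor, had 113, 127, 196 and 92.8 CPM, and FR17 stood at 0.474 times sFD17 (0.447 to 0.502), an interval that reaches the 2-fold line. With library size alone, the FR17 to sFD17 log2 differences of Itgal, Itga4 and Itga5 were -0.82, -0.76 and -0.62, the same direction but short of 2-fold.

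Itga6 and Itga9 showed another order, with sFD17 lowest and TP5 between it and Ctrl. Itga6, the laminin-binding α6 chain, had 55.6 CPM in Ctrl, 30.8 in TP5, 22.3 in sFD17 and 47.8 in FR17. Its level in sFD17 was 0.401 times Ctrl (0.350 to 0.457), and FR17 stood at 2.15 times sFD17 (1.88 to 2.45). Itga9, whose product pairs with β1 and binds tenascin-C, osteopontin and VCAM-1, had 21.3, 12.1, 9.32 and 22.9 CPM in the same order. In sFD17 it was 0.437 times Ctrl (0.353 to 0.538), and FR17 was 2.46 times sFD17 (2.02 to 3.02). The ratio of Itga5 to Itga6 per length, a within-library value, was 3.73 in Ctrl, 7.54 in TP5, 16.1 in sFD17 but 3.55 in FR17.

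The other α chains stayed within 2-fold of Ctrl in every peptide library, except that library size alone put Itga2 and Itga3 past 2-fold in FR17. Itgav, shared by the vitronectin-type and TGF-β-activating integrins, had 43.4 to 57.2 CPM. The collagen receptor chains Itga1 and Itga2, the laminin-type chains Itga3 and Itga7, the chain Itga8 and the platelet chain Itga2b lay between 1.12 and 11.1 CPM. In FR17 the count intervals of Itga1, Itga2, Itga2b and Itga3 lay above Ctrl, at 1.33, 1.79, 1.44 and 1.72 times. Of the 14 α chains, 9 were above Ctrl in TP5, 12 in sFD17 and 6 in FR17, where 50.1%, 48.0% and 52.3% of all genes tested were above Ctrl, but under library size alone Itgam and Itga3 changed side in TP5, Itgam, Itgax, Itgav, Itga8 and Itga1 in sFD17, and Itgax, Itgav, Itga6 and Itga8 in FR17.

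With TMM on the tested genes, no β chain with 50 counts or more differed by 2-fold. Itgb2, the β2 chain, had 1400 CPM in Ctrl, 1412 in TP5, 1775 in sFD17 and 1142 in FR17. Its log2 differences from Ctrl were 0.01, 0.34 and -0.30, none at 2-fold. Itgb1, the chain with the most α partners, had 298, 298, 245 and 314 CPM and so was lowest in sFD17, unlike Itgb2. The ratio of Itgb2 to Itgb1 per length was 6.29 in Ctrl, 6.34 in TP5, 9.68 in sFD17 and 4.86 in FR17.

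Itgb7, the partner of α4 in gut homing and of αE in epithelial retention, had 145 CPM in Ctrl, 206 in TP5, 206 in sFD17 and 179 in FR17. It was above Ctrl in each of the peptide libraries, at 1.42 times (1.35 to 1.5) in TP5, 1.42 times (1.34 to 1.5) in sFD17 and 1.23 times (1.17 to 1.3) in FR17, all short of 2-fold and all against the same Ctrl library. Per length, Itgb1 stood at 1.39 times Itgb7 in Ctrl, 0.980 (TP5), 0.809 (sFD17) and 1.19 (FR17), so that Itgb7 was the higher of these α4 partners in sFD17, while in TP5 their intervals met. Itgb5, a vitronectin receptor chain, had 101, 94.1, 62.1 and 119 CPM, with sFD17 lowest and FR17 at 1.92 times sFD17 (1.77 to 2.07), which library size alone and TMM on unfiltered genes both put past 2-fold. Itgb3, the αIIb and αv partner, had 25, 32.4, 40.5 and 26.5 CPM, with sFD17 highest at 1.62 times Ctrl (1.43 to 1.85). Itgb4 had 21 to 49 counts, and Itgb8 had 8, 8, 2 and 12 counts in Ctrl, TP5, sFD17 and FR17, so its ratio of 0.320 in sFD17 has an interval from 0.0331 to 1.60.

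The selectins and their ligand were all lower in TP5 and FR17 than in Ctrl, short of 2-fold. Selplg, which encodes PSGL-1, the leukocyte ligand of P-selectin, had 909 CPM in Ctrl, 705 in TP5, 938 in sFD17 and 580 in FR17. FR17 stood at 0.637 times Ctrl (0.623 to 0.652) and TP5 at 0.775 times (0.757 to 0.794). Selp, the P-selectin of platelets and endothelium, had 37.3, 19.6, 35.2 and 21 CPM, which is 0.526 times Ctrl in TP5 (0.460 to 0.601) and 0.564 times in FR17 (0.5 to 0.636). Sele, the endothelial E-selectin, had 142, 124, 124 and 142 counts. Its FR17 level was 0.736 times Ctrl (0.579 to 0.935), and in TP5 the interval of the ratio (0.655 to 1.08) held 1. Selp and Sele lie 57.6 kb apart on chromosome 1 of GRCm38, and Selp shares 9.93% and 4.21% of its exon bases with Gm16548 and Gm16587 on the opposite strand, which had 12 to 42 counts each.

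In TP5 Selp and the summed endothelial markers were below Ctrl, and so was the platelet sum, mostly through Pf4. In FR17 Selp was below Ctrl and both sums were above it. The 11 endothelial markers stood at 0.682 times Ctrl in TP5, 1.12 in sFD17 and 1.34 in FR17, where Selp stood at 0.526, 0.943 and 0.564 times. The 11 platelet markers stood at 0.440, 0.309 and 1.26 times, of which Pf4 set most of the sum, since without it they stood at 0.993, 1.21 and 1.28 times. Of the 9 platelet markers tested, 5 were above Ctrl in TP5, and Gp1bb was at 0 in all 4 libraries. The part of these cells in the Selp differences was not tested.

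The Ig-type ligands held the largest differences in both directions in sFD17 against Ctrl and in FR17 against sFD17. Icam1, the ligand of LFA-1 and Mac-1 (gene on chromosome 9 of GRCm38, 21015985 to 21028817), had 276 CPM in Ctrl, 338 in TP5, 831 in sFD17 and 209 in FR17. Its level in sFD17 stood far above the rest, at 3.01 times Ctrl (2.91 to 3.12), and FR17 lay lowest, at 0.760 times Ctrl (0.729 to 0.791) and 0.252 times sFD17 (0.244 to 0.261). Library size alone gave log2 differences of 1.38 for sFD17 against Ctrl and -1.53 for FR17 against sFD17, beside 1.59 and -1.99 with TMM. An antisense gene, Gm47079, shares 11.7% of the exon bases of Icam1 but had 1 to 12 counts per library. The neutrophil marker sum in sFD17 was 1.31 times Ctrl and the macrophage sum 0.328 times, and their part in the Icam1 difference was not tested.

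Vcam1, the α4β1 ligand, which in the lung is made by endothelium, stroma and some macrophages (gene on chromosome 3 of GRCm38, 116109949 to 116129688), ran the opposite way to Icam1. It had 1054 counts in Ctrl, 525 in TP5, 223 in sFD17 and 1486 in FR17, or 62.4, 29.9, 16.9 and 64.7 CPM. TP5 stood at 0.480 times Ctrl (0.431 to 0.533) and sFD17 at 0.271 times (0.233 to 0.313), while FR17 was at 1.04 times, with an interval from 0.958 to 1.12 that held 1. FR17 stood at 3.83 times sFD17 (3.33 to 4.43). Per length, Icam1 stood at 8.99 times Vcam1 in Ctrl, 22.9 in TP5, 100.1 in sFD17 and 6.58 in FR17, a ratio that no scaling between libraries can move.

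Icam2, the constitutive LFA-1 ligand of endothelium and platelets, had 30.2, 14.5, 15.4 and 29.4 CPM in Ctrl, TP5, sFD17 and FR17. TP5 and sFD17 stood together at 0.481 (0.413 to 0.561) and 0.509 (0.431 to 0.601) times Ctrl, on either side of the 2-fold line with overlapping intervals. Library size alone exchanged these sides, at log2 differences of -0.997 in TP5, just short of 2-fold, and -1.18 in sFD17, and TMM on unfiltered genes put both past 2-fold. Under these settings Icam2 was also at least 2-fold higher in FR17 than in sFD17, while FR17 stood at 0.972 times Ctrl (0.866 to 1.09) with TMM on the tested genes. F11r, the junction molecule JAM-A, had 37.1, 31.4, 26.4 and 48.4 CPM, with FR17 highest at 1.3 times Ctrl (1.18 to 1.44). Jam2 had 67, 39, 35 and 94 counts in the same order. Cxadr, the coxsackie and adenovirus receptor of epithelial junctions, had 85, 45, 55 and 46 counts. It was the member past 2-fold in FR17 against Ctrl, at 0.398 times (0.272 to 0.577). Its TP5 level was 0.510 times Ctrl (0.347 to 0.740), which overlaps that of FR17, while the interval in sFD17 (0.579 to 1.18) held 1. It shares 9.39% of its exon bases with Btg3 on the opposite strand, which had more counts than Cxadr in each library (107 to 233), and whether the counting used strand is not given in the sources used here.

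**Figure D3:**
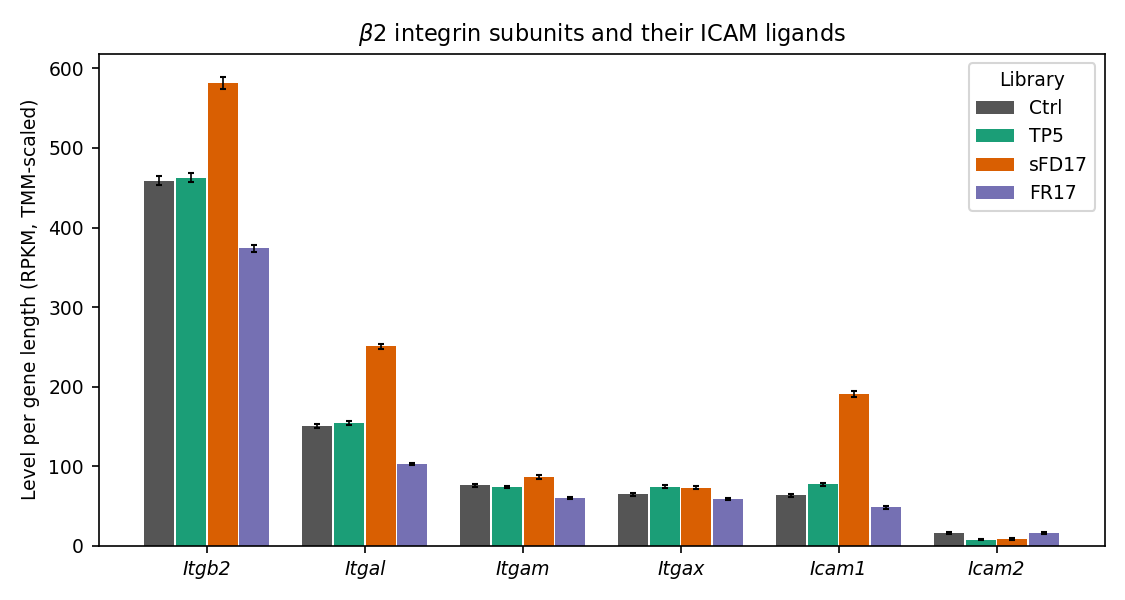
Level per gene length (RPKM, TMM-scaled, linear axis from 0) of the β2 chain, its α chains and their ICAM ligands in the 4 libraries, 1 bar per library with 95% Poisson counting intervals. Itgal and Icam1 are highest in sFD17 (Icam1 at 191 RPKM against 63.2 in Ctrl), and Itgam and Itgax differ less.

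The members lower in sFD17 than in Ctrl were set beside the marker sums of other lung cells. Itga9, Itgb5, Itgb8, Vcam1 and F11r had the same order of levels, sFD17 lowest, then TP5, Ctrl and FR17, but not each step was beyond its counting interval: Itgb8 had 8 counts in both TP5 and Ctrl, and the FR17 to Ctrl ratios of Itga9 (0.938 to 1.23) and Vcam1 (0.958 to 1.12) held 1. The macrophage, T cell and platelet marker sums had that order too. The macrophage sum was 0.776, 0.328 and 1.32 times Ctrl in TP5, sFD17 and FR17, the T cell sum 0.902, 0.568 and 1.70 times, and the platelet sum 0.440, 0.309 and 1.26 times, although the platelet order was lost without Pf4, and the T cell sum was below Ctrl in TP5 only through Cd4, which stood at 0.465 times, while the 7 other T cell markers were above Ctrl. In sFD17, 3 of the 8 T cell markers were above Ctrl, and Cd4 and Cd2 were the 2 at least 2-fold lower, at 0.299 and 0.472 times. Of the macrophage markers, each of the 14 genes was below Ctrl in TP5 and sFD17 and above it in FR17, with 11 at least 2-fold lower in sFD17. Without Chil3, the most abundant of them, the macrophage sums were 0.588, 0.301 and 1.20 times Ctrl. The endothelial, fibroblast and smooth muscle, and epithelial sums were 1.12, 0.915 and 1.90 times Ctrl in sFD17, where Vcam1 stood at 0.271 times. The markers behind these sums were mixed: 5 of 11 endothelial, 4 of 12 fibroblast and smooth muscle, and 8 of 13 epithelial ones were above Ctrl in sFD17. Without Scgb1a1, a club cell secretory gene, the epithelial sum there was 0.864 times. The NK cell sum was 0.852, 0.961 and 2.85 times Ctrl in TP5, sFD17 and FR17, or 0.993, 1.09 and 2.65 times without Gzma. The monocyte sum was 1.07 (TP5), 1.28 (sFD17) and 0.913 (FR17) times Ctrl. Leaving out Nr4a1, the most abundant monocyte marker, moved these ratios to 1.06, 1.12 and 1.06, so the FR17 sum changed side. Of the 8 monocyte markers, 6 (TP5), 5 (sFD17) and 6 (FR17) were above Ctrl. The B cell sum was 1.44, 1.15 and 1.20 times Ctrl by the same order of libraries, and that of eosinophils, basophils and mast cells 1.65, 1.51 and 2.38 times. The part of these cells in the members' differences was not tested.

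**Figure D4:**
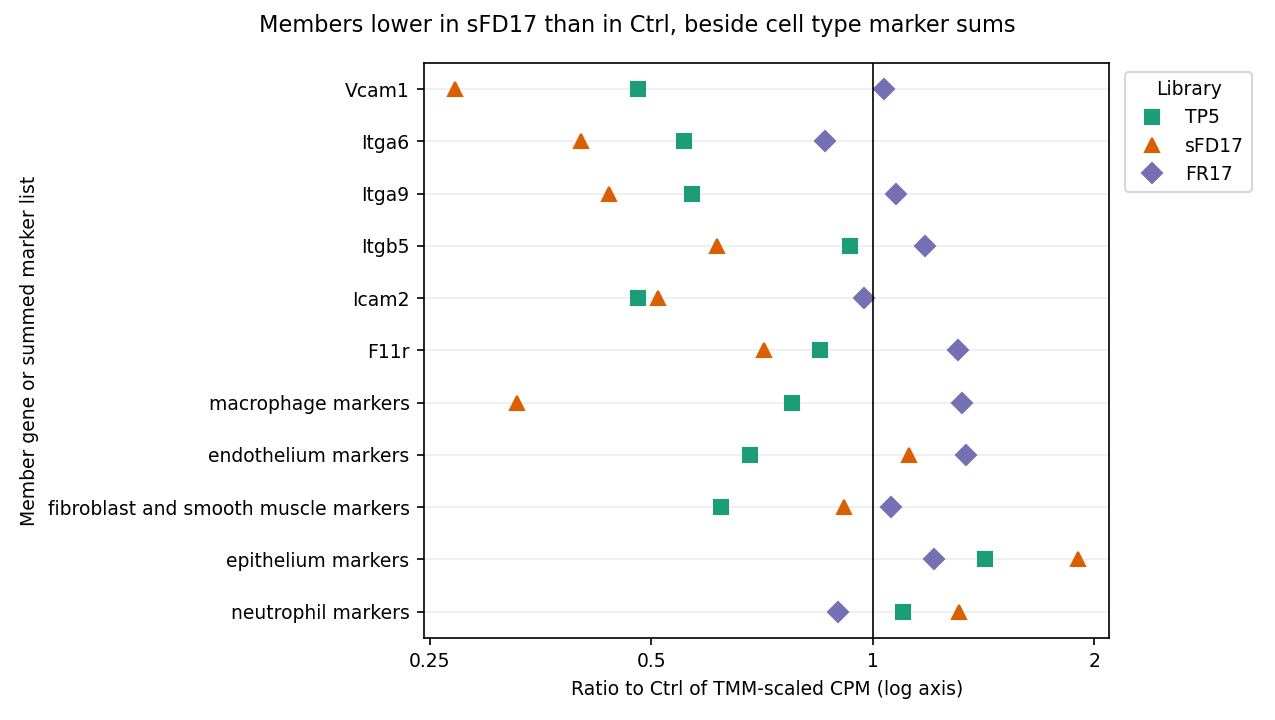
Ratio to Ctrl of TMM-scaled CPM (log axis) for 6 members lower in sFD17 and for the summed markers of 5 cell types, with 1 symbol for each peptide library. Macrophage markers at 0.328 times Ctrl in sFD17 lie beside Vcam1 at 0.271 and Itga6 at 0.401 times, while the 4 other sums drawn lie at 0.915 times or above in sFD17. The T cell and platelet sums, at 0.568 and 0.309 times in sFD17, are not drawn.

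Cd44 and Cd47, broadly expressed on leukocytes, behaved differently from each other. Cd44, the hyaluronan receptor, had the most counts of all members and stood at 2385 CPM in Ctrl, 2034 in TP5, 2762 in sFD17 and 1348 in FR17. FR17 was 0.565 times Ctrl (0.557 to 0.573) and 0.488 times sFD17 (0.481 to 0.495), but with library size alone the log2 difference between FR17 and sFD17 was -0.57, short of 2-fold. Cd47, the ligand of SIRPα that restrains phagocytosis, stood at 265, 274, 274 and 267 CPM. Its 3 ratios to Ctrl had intervals that held 1, with bounds from 0.970 to 1.08, although library size alone moved its FR17 to sFD17 difference from -0.04 to 0.42 on the log2 scale.

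The activators Tln1 and Fermt3 also diverged. Tln1, talin-1, had 864 CPM in Ctrl, 1014 in TP5, 1480 in sFD17 and 780 in FR17. Its sFD17 level was 1.71 times Ctrl (1.68 to 1.75) and 1.90 times that in FR17. Fermt3, kindlin-3 of blood cells, had 233, 249, 232 and 238 CPM, and its intervals against Ctrl held 1 in sFD17 (0.946 to 1.04) and FR17 (0.980 to 1.06). In the TP5 library it stood at 1.07 times Ctrl (1.02 to 1.12). The Tln1 direction in FR17 against Ctrl, -0.15 on the log2 scale, became 0.10 with library size alone.

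Other genes of the pathway were taken as 3 lists. Of 28 tested genes of integrin activation and signaling, 10 were above Ctrl in TP5, 21 in sFD17 and 9 in FR17, where 50.1%, 48.0% and 52.3% of all genes tested were above Ctrl. The list's median log2 differences were -0.09, 0.22 and -0.29. With library size alone, an alternative chosen after seeing the data, the counts above Ctrl were 11, 15 and 13 beside 55.5%, 31.9% and 71.6% of all genes, and the medians -0.04, 0.00 and -0.05 beside 0.05, -0.23 and 0.26. Past 2-fold were Tln2, talin-2, lower in TP5 and sFD17 (133 counts in Ctrl, 35 in TP5, 15 in sFD17 and 181 in FR17), Vcl, vinculin, higher in sFD17 (811, 1223, 1367 and 895 counts), and Src, a kinase, lower in sFD17 (180, 144, 64 and 256 counts). With library size alone Vcl fell short of 2-fold in sFD17. Skap1, an adaptor of T cell integrin signaling, was higher in FR17 (42, 51, 38 and 151 counts), where the T and NK cell marker sums were 1.70 and 2.85 times Ctrl, and their part was not tested. Tln2 and Tln1 thus lay on opposite sides of Ctrl in sFD17. Between FR17 and sFD17, 3 of the 28 were at least 2-fold higher and 5 lower, beside 11.3% and 10.8% of all genes tested. The lower ones included the kinase Fgr at -1.23 on the log2 scale (8388 counts in FR17 and 11346 in sFD17), which with library size alone fell short of 2-fold.

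Of 21 tested other adhesion genes, 3 were at least 2-fold higher and 1 lower in TP5, 1 higher and 2 lower in sFD17, and 0 in either direction in FR17, and between FR17 and sFD17 4 were higher and 2 lower. The shares of all genes tested, higher and lower, were 3.20% and 4.99% in TP5, 5.32% and 6.47% in sFD17, 3.92% and 3.58% in FR17, and 11.3% and 10.8% between FR17 and sFD17. The lower call in TP5 was Itga11 (6, 2, 1 and 11 counts in Ctrl, TP5, sFD17 and FR17), also called in sFD17 and between FR17 and sFD17. The higher call in sFD17 was Icam5 (5, 14, 12 and 15 counts), also called in TP5. Apart from Icam5 in sFD17, the intervals of these calls held 1. Itgae, the αE chain, had 87 counts in Ctrl, 225 in TP5, 131 in sFD17 and 220 in FR17, a log2 difference of 1.3 in TP5. Cd226, a receptor of T and NK cells and platelets, had 73, 170, 61 and 141 counts, a difference of 1.15 in TP5. αE also marks a class of lung dendritic cells, and the summed dendritic cell markers were 1.75, 1.08 and 1.32 times Ctrl in TP5, sFD17 and FR17, and their part was not tested. Cd99l2, a molecule of leukocyte passage through endothelium, had 142, 87, 47 and 250 counts and was 1.21 below Ctrl in sFD17 on the log2 scale. Thbs1, thrombospondin-1, had log2 differences from Ctrl of 0.33, 0.90 and -0.65 in TP5, sFD17 and FR17. It was at least 2-fold lower in FR17 than in sFD17, at -1.54. Of 13 tested genes that glycosylate selectin ligands, 1 (Galnt2, with 5 to 22 counts in Ctrl, TP5 and sFD17) was past 2-fold in TP5 and in sFD17 and 0 in FR17 or between FR17 and sFD17. The list's medians against Ctrl were 0.14, 0.05 and -0.13, beside 0.00, -0.03 and 0.02 for all genes. With library size alone they were 0.19, -0.16 and 0.11, beside 0.05, -0.23 and 0.26 for all genes.

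The members' places in the genome are spread over 15 chromosomes of GRCm38, with 6 on chromosome 2 and 5 on chromosome 11. Neighbours differed to unlike degrees. Itgam and Itgax lie 11.1 kb apart on chromosome 7, with Itgal 728 kb away. All were lower in FR17 than in sFD17, at 0.697 (Itgam), 0.798 (Itgax) and 0.411 times (Itgal), and Itgal alone was past 2-fold. With library size alone these log2 differences were -0.06, 0.14 and -0.82, so Itgax changed side and Itgal fell short of 2-fold. Itga2 and Itga1 lie 21 kb apart on chromosome 13 and stood at 1.79 (1.24 to 2.62) and 1.33 (1.08 to 1.65) times Ctrl in FR17, with overlapping intervals.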

How the data were processed

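MDSC mRNA of 4 libraries, 1 per group, was analysed. The authors deposited raw counts of reads per gene, without normalization, with gene coordinates and a gene length in bases. The submitters' processing notes name HISAT2 2.0.5, StringTie 1.3.3b, featureCounts 1.5.0-p3, edgeR 3.18.1 and GRCm38.p6. The settings of the counting, strand included, are not given in the sources used here. All 35 members had the same coordinates in GENCODE M21.

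The tools were edgeR 4.0.16 and DESeq2 1.42.0 (size factors only) in R 4.3.3, with pandas 2.3.3, scipy 1.17.1 and matplotlib 3.10.9. Differences on the log2 scale were taken between TMM-scaled log2 CPM values (edgeR, prior count 2), for the 16369 genes on which any library had 10 counts or more. With 1 library per group the quasi-likelihood test could not be fitted, and a difference of at least 2-fold was the call. Ratios have exact binomial (Clopper-Pearson) 95% intervals, levels exact Poisson intervals, and a count of 0 a floor of 3 counts. RPKM used the gene length of the table. Reads without molecular identifiers are not independent molecules, so intervals cover counting error only. The steps were tested on simulated data.

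Described per library were members past 2-fold that reached 50 counts in either library compared and a core of 13 adhesion genes, and from each pathway list at most 3 genes per comparison by the same minimum. Some genes outside this rule (Itgb5, Itgb3, Selp, Sele, F11r, Jam2, Itgb8 and Galnt2, among others) were named to account for every member or count. Some genes that the rule selects are not reported here. Members (by name, with no measured value in the rule), lists and markers were chosen with earlier results of these data known. Motifs were searched in RefSeq promoters (GRCm38.p6). Alternatives were DESeq2 size factors, library size alone, other count filters, a prior count of 0.5, a 1.5-fold call, and edgeR's exact test. Library size alone for the pathway lists was added after seeing the data.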

Additional observations from a re-analysis of the deposited data

How the results depend on the processing

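No paired analysis was possible because each group holds 1 library, and for the same reason no library could be left out. The number of members past 2-fold kept within 1.5 times of the reported 2, 5, 1 and 10 (TP5, sFD17 and FR17 against Ctrl, and FR17 against sFD17) with DESeq2 size factors, both other count filters, a prior count of 0.5 and the 50-count minimum. Library size alone gave 1 member in TP5 and 3 in FR17 against Ctrl. A 1.5-fold call gave 7, 12, 7 and 20. An edgeR exact test, with the spread estimated over the 4 libraries as 1 group (common biological coefficient of variation 0.267), called 3, 5, 0 and 8 members at an unadjusted p under 0.05, beside 324, 791, 307 and 2073 of all genes. These counts compare single libraries, not treatments, and nothing rests on them. With DESeq2 size factors or library size alone, 25 log2 differences of the tested members changed sign, all of them short of 2-fold. The value of Itga7 between FR17 and sFD17, 0 after rounding, is not among them, and signs with TMM on unfiltered genes were not compared. Without Pf4 the platelet marker sum in sFD17 turned from 0.309 to 1.21 times Ctrl. At 2 to 12 counts, the 2-fold calls of Itgb8 have intervals that hold 1.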
